A study of Mus musculus with 10 samples.

Results

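The 10 core circadian clock genes described here are Arntl (also called Bmal1), Clock, Npas2, Per1, Per2, Per3, Cry1, Cry2, Nr1d1 and Nr1d2, 10 of the 27151 genes in the deposited table. They are the genes of the central transcription loop of the mouse clock. They were listed by name and chosen by a rule that drew on their normalised counts in these same libraries, so the SP2509 against vehicle values were already known. Their differences between the groups are therefore given as a description: the counts of members past a threshold stand only beside the share of all genes, and nothing is read from them. The libraries came from tongues of C57BL/6J mice, all of which had been exposed to 4NQO, a carcinogen given to mice to induce oral lesions. In 6 libraries the treatment was SP2509, an inhibitor of the histone demethylase LSD1, and in 4 it was vehicle. The titles of the treated libraries read SP2509h, and the labels state neither what the h means nor the dose, the age of the mice or the hour of tissue collection.

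In the mouse clock, the proteins of Arntl and Clock, or of Arntl and Npas2, bind together to E-boxes and switch on the Per, Cry and Nr1d genes. The PER and CRY proteins then hold back that activation, while the REV-ERB proteins made from Nr1d1 and Nr1d2 repress Arntl, Npas2, Clock and Cry1 through ROR elements, where the ROR proteins activate. The loop turns over about once a day in most tissues, and Arntl and Npas2 transcripts reach their height at a different time of day from Nr1d1, Dbp and the Per transcripts. LSD1 has been reported to associate with the CLOCK and BMAL1 proteins in mouse cells.

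The promoter windows of 5 members that hold a match to a DNA motif of clock regulation are shown. Cry2 also had a match and is not shown. Windows were read from RefSeq (GRCm38.p6) and run from 250 bases before to 50 bases after an annotated start, 5′ to 3′ on the gene's strand, with motif matches in capitals. They lie at chr7:113207261-113207560 (plus strand) for Arntl, chr11:69098699-69098998 (plus strand) for Per1, chr4:151044616-151044915 (minus strand) for Per3, chr10:85185005-85185304 (minus strand) for Cry1 and chr11:98775328-98775627 (minus strand) for Nr1d1.
Arntl: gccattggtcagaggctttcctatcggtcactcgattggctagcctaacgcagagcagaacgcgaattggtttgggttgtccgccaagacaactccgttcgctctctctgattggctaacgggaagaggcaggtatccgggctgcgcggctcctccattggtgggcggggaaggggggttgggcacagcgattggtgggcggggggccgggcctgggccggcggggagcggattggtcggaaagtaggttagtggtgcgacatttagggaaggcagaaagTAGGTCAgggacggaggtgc
Per1: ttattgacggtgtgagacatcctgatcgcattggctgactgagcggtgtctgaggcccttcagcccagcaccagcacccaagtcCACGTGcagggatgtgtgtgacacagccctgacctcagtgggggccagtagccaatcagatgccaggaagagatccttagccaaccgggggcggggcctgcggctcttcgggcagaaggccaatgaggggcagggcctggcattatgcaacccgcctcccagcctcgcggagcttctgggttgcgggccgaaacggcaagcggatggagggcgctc
Per3: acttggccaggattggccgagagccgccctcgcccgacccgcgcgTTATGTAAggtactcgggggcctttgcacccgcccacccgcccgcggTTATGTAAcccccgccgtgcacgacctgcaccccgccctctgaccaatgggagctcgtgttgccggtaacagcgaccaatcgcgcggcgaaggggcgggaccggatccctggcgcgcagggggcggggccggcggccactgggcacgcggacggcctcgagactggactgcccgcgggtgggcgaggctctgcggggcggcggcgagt
Cry1: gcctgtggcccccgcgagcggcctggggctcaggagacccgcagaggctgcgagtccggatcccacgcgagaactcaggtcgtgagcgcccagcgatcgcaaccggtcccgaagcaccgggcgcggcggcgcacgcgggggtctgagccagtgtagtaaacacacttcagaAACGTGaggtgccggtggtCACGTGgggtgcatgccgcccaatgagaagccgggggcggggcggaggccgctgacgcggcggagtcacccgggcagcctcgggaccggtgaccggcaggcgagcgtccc
Nr1d1: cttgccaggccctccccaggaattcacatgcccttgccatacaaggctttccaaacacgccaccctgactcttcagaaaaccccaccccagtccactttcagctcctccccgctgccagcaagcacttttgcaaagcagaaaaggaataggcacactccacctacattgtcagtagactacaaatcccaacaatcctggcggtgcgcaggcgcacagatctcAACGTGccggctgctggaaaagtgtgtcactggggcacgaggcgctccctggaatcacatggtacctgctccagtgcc
The capitals mark the ROR element core TAGGTCA in Arntl, the E-box CACGTG in Per1, the D-box TTATGTAA in Per3, an E-prime box followed by an E-box in Cry1, and an E-prime box in Nr1d1. The E-prime box CACGTT reads AACGTG where it lies on the other strand, as in both Cry1 and Nr1d1.

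Windows were found for 9 of the 10 members, 13 in all, and 6 genes had a match on either strand. The E-box stood 166 bases upstream of the start in Per1 and 60 bases upstream in Cry1, and 7.15% of all 32851 RefSeq windows hold one. The E-prime box, held by 4.68% of windows, lay 79 bases upstream in Cry1, 166 in Cry2 and 28 in Nr1d1. The ROR core, held by 2.61%, occurred once, 30 bases downstream of 1 of the Arntl starts. Per3 held 2 D-boxes, 205 and 158 bases upstream, a motif found in 0.938% of windows and bound by DBP, TEF, HLF and NFIL3. The cAMP element TGACGTCA, held by 1.79%, was in none of the 13 windows. These are matches of letters within 300 bases and do not show that a protein was bound.

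The table gives normalised read counts, meaning whole reads divided by 1 size factor per library. Total reads were 15748571 to 19375555 in SP2509 libraries and 9180844 to 14768955 in vehicle libraries, and 1 read was worth 0.727 to 0.873 normalised counts in SP2509 against 0.898 to 1.854 in vehicle. Mitochondrial genes took 24% to 32.2% of reads in SP2509 and 35.3% to 52.1% in vehicle. SP2509 replicates 1 and 2, and SP2509 replicates 4 and 5, stood closer than other libraries of one group: for genes with 1000 to 5000 reads they differed by 3.42 and 3.78 times the Poisson expectation, against 10.4 to 163 times in the other 19 pairs. Each close pair was counted as 1 unit, so SP2509 means and SDs are over 4 units, and fold changes are over the 10 libraries unless the pairs are said to be merged. Markers of muscle and of tongue keratinocytes were detected in every library. Muscle markers summed to 296067 to 861923 in SP2509, with replicate 6 the highest, and to 183199 to 369970.1 in vehicle. Keratinocyte markers summed to 49172 to 243089 in SP2509 and to 85753 to 121362 in vehicle. Within SP2509 they were 225009 to 243089 in replicates 1 to 3, about the vehicle maximum in replicates 4 and 5 (122921 and 121701), and lowest, at 49172, in replicate 6. Adipocyte markers summed to 5462 to 17449 in SP2509, again highest in replicate 6, and to 3857 to 6296 in vehicle, and Schwann cell markers to 3533 to 8468 in SP2509 and 7176 to 15096 in vehicle. The part of this mix in the clock values was not tested beyond leaving libraries out and the muscle covariate.

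At an adjusted p under 0.05 in limma across all tested genes, called here, 2 of the 10 members were higher in SP2509 and 1 was lower, beside 9.10% of the 17088 tested genes (4.95% higher, 4.15% lower). All 10 passed the filter on low values. The called members were Per2 and Cry1, which were higher, and Nr1d1, which was lower. Over 24 ways of processing, this fit included, Per2 was called in 16, Cry1 in 14 and Nr1d1 in 11. Npas2 was called in 5 and Arntl in 4, and the other members in none. The number of members called was 0 without SP2509 replicate 3 or without Vehicle replicate 1, beside 705 and 278 of all tested genes. It was 1 without SP2509 replicate 4 or 5, beside 818 and 751. When the close pairs were merged it was 0, a fit in which 0.00% of all genes were called and 3632 had an unadjusted p under 0.05. By edgeR the member count was 5, beside 8.76% of all genes (5.34% higher, 3.42% lower), and by DESeq2 it was 5, beside 17.6% (9.40% higher, 8.16% lower). Log2 fold changes were positive for 5 members and negative for 5, and their median was -0.06, against 0.02 over all tested genes. Fold changes are given below as log2 of SP2509 over vehicle, on log2(value + 1).

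**Figure D1:**
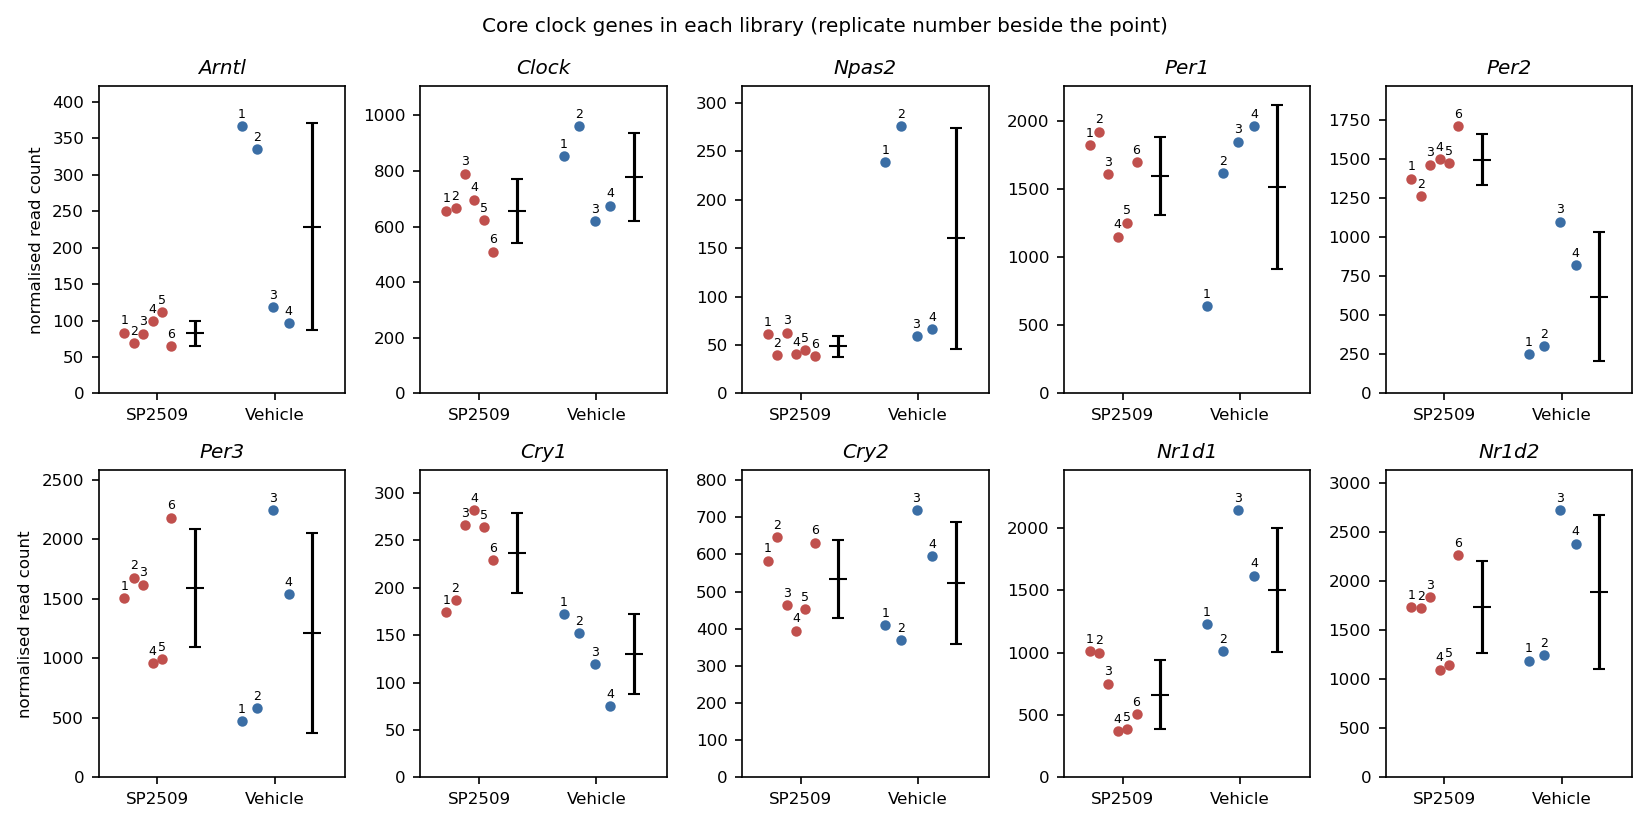
Normalised read count of each core clock gene in the 6 SP2509 libraries (left) and the 4 vehicle libraries (right), with the replicate number beside each point; the black bar is the mean ± SD over 4 SP2509 units or 4 vehicle libraries. Per2 and Cry1 are the genes whose groups do not overlap, while Arntl and Npas2 have Vehicle 1 and 2 far above all other libraries.

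The activator genes Arntl and Npas2 were low in every SP2509 library and split the vehicle libraries apart. Arntl (chromosome 7, 113207465 to 113314126), which encodes BMAL1, had 65.1, 82.7 and 112 normalised counts as its lowest, median and highest value in SP2509, against 367, 335, 118 and 96.1 in Vehicle 1 to 4. Vehicle 1 and 2 stood above all other libraries, while Vehicle 4 lay below SP2509 replicates 4 and 5, so the groups overlapped. The means were 82.3 ± 17.1 in SP2509 and 229 ± 142 in vehicle (SD, n = 4 each), and the log2 fold change was -1.20 ± 0.36 (SE), between -1.53 and -0.89 with 1 library left out in turn.

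Npas2 (chromosome 1, 39193731 to 39363236), a paralog of Clock that can take its place beside BMAL1, showed the same split. Its lowest, median and highest counts in SP2509 were 38.3, 42.5 and 62.8, against 239, 276, 59.1 and 66.4 in Vehicle 1 to 4. Vehicle 3 lay inside the SP2509 range and Vehicle 4 just above it. The mean was 48.5 ± 10.8 in SP2509 and 160.3 ± 114 in vehicle (SD, n = 4 each), with a log2 fold change of -1.42 ± 0.42 (SE). Npas2 rested on few reads, 359 over the SP2509 libraries and 425 over the vehicle libraries.

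Clock (chromosome 5, 76209868 to 76304792), which encodes the usual partner of BMAL1, had the narrowest range, 1.89-fold between its lowest and its highest library. Its SP2509 counts ran from 509 through a median of 662 to 790.0, and Vehicle 1 to 4 had 853, 961, 619 and 675. The groups overlapped, Vehicle 1 and 2 were again the highest, and the log2 fold change was -0.23 ± 0.15 (SE).

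Among the repressors, Per2 and Cry1 were higher in every SP2509 library than in any vehicle library, and Per1, Per3 and Cry2 were not. Such separation of the groups was found for 11.7% of all tested genes (6.54% higher in SP2509, 5.11% lower). Per2 (chromosome 1, 91415982 to 91459324), a PER gene that also answers to glucocorticoids, had 1259, 1467 and 1709 counts as lowest, median and highest in SP2509, against 252, 303, 1098 and 822 in Vehicle 1 to 4. The SP2509 libraries lay close together, while Vehicle 1 and 2 were far below Vehicle 3 and 4. Means were 1493 ± 163 in SP2509 and 619 ± 411 in vehicle (SD, n = 4 each), a log2 fold change of 1.50 ± 0.35 (SE), between 1.16 and 1.87 with 1 library left out.

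Cry1 (chromosome 10, 85131700 to 85185064), the CRY gene that REV-ERB represses and whose protein is a strong late repressor of the loop, had 174, 246 and 282 counts as lowest, median and highest in SP2509 and 172, 152, 119.7 and 75.4 in Vehicle 1 to 4. The groups only just failed to overlap, SP2509 1 and Vehicle 1 being almost level. Here it was Vehicle 3 and 4 that were lowest. The means were 237 ± 42.3 in SP2509 and 129.9 ± 42.3 in vehicle (SD, n = 4 each), and the log2 fold change was 0.89 ± 0.23 (SE), or 0.76 without SP2509 replicates 4 and 5, whose Cry1 was among the highest. Over the vehicle libraries Cry1 had 361 reads, and over SP2509 1750.

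Per1 (chromosome 11, 69095217 to 69109960), an immediate-response member of the PER family, had 1149, 1652 and 1919 counts as lowest, median and highest in SP2509, against 638, 1615, 1845 and 1959 in Vehicle 1 to 4. Vehicle 1 was alone at the low end. The log2 fold change of 0.15 ± 0.28 (SE) became -0.22 without Vehicle replicate 1 and -0.03 with the mean log2 value of the muscle markers as a covariate.

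Per3 (chromosome 4, 151003652 to 151044665), a PER gene that mice can lose with little effect on rhythm, ran from 962 through 1563 to 2184 in SP2509, against 471, 584, 2247 and 1539.9 in Vehicle 1 to 4. As for Per2, Vehicle 1 and 2 were the lowest libraries, but Vehicle 3 was the highest of all 10. Its log2 fold change was 0.53 ± 0.40 (SE), and 0.18 without Vehicle replicate 1 or 0.93 without Vehicle replicate 3.

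Cry2 (chromosome 2, 92403646 to 92434043), the other CRY repressor, ran from 395 through 523 to 647 in SP2509 and stood at 409.8, 369, 719 and 595 in Vehicle 1 to 4. The ranges covered each other almost wholly, and the log2 fold change of 0.04 ± 0.20 (SE) changed sign in 7 of 23 alternatives. Its exons share 295 bases with D930015M05Rik, which had 7.39 ± 4.34 counts in SP2509 and 6.34 ± 5.60 in vehicle (SD, n = 4 each).

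The REV-ERB genes were unlike each other. Nr1d1 (chromosome 11, 98767932 to 98775333), which encodes REV-ERB alpha, had 372, 630.2 and 1012 counts as lowest, median and highest in SP2509, against 1229, 1009, 2141 and 1615 in Vehicle 1 to 4. SP2509 replicates 4 and 5 were lowest with 372 and 387, and SP2509 1 just passed Vehicle 2, so the groups overlapped. The means were 661 ± 277 in SP2509 and 1499 ± 496 in vehicle (SD, n = 4 each), and the log2 fold change was -1.22 ± 0.32 (SE), or -0.87 without SP2509 replicates 4 and 5. Those libraries also had gland marker sums of 330358 and 341452, whereas replicates 1, 2, 3 and 6 had 22.3 to 855 and vehicle libraries 37.1 to 491, and the part of gland tissue in the Nr1d1 value was not tested beyond leaving them out. In bulk tissue, fewer cells of a type and less RNA per cell cannot be told apart.

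Nr1d1 overlaps Thra, a thyroid hormone receptor gene on the opposite strand, by 263 exon bases, 8.55% of its exons. Thra had 758 ± 261 counts in SP2509 and 1289 ± 284 in vehicle (SD, n = 4 each), a log2 fold change of -0.86 ± 0.23 (SE) with an adjusted p of 0.0362 in limma. The labels do not state the strand setting of the counting, so reads from the shared bases cannot be told apart.

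Nr1d2 (chromosome 14, 18204054 to 18239127), which encodes REV-ERB beta, ran from 1097 through 1731 to 2259 in SP2509, against 1187, 1247, 2721 and 2379 in Vehicle 1 to 4. SP2509 4 and 5 and Vehicle 1 and 2 shared the low end. The log2 fold change was -0.15 ± 0.27 (SE) and turned to 0.06 without Vehicle replicate 3 and to 0.09 without SP2509 replicates 4 and 5.

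**Figure D2:**
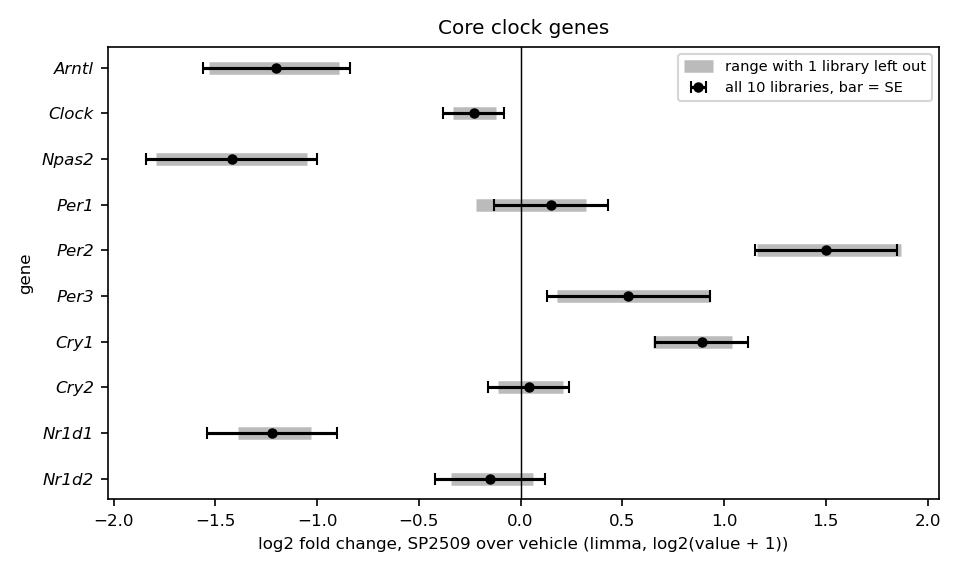
Log2 fold change of SP2509 over vehicle for the 10 core clock genes (limma on log2(value + 1)); points are the fit of all 10 libraries, black bars its SE, and grey bands the range when each library is left out in turn. Per2 at 1.50 and Cry1 at 0.89 lie to the right, and Arntl at -1.20, Nr1d1 at -1.22 and Npas2 at -1.42 to the left, while the bands of Per1, Cry2 and Nr1d2 cross 0.

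The spread between vehicle libraries is given as a description only, because the members were chosen with their values in these libraries known. The SD of log2 values over the 4 vehicle libraries was 1.17 for Npas2, larger than in 94.3% of tested genes, 1.08 for Per3 (93.4%), 1.05 for Per2 (92.9%) and 1.0 for Arntl (92.3%). It was 0.76 for Per1 (86.9%), 0.62 for Nr1d2 (81.3%), 0.52 for Cry1 (75.0%), 0.47 for Nr1d1 (71.1%), 0.45 for Cry2 (69.1%) and 0.29 for Clock (49.8%), with a median of 0.29 over tested genes. So 9 of the 10 members lay above that median and Clock just below it, and nothing is read from that count. Over the 4 SP2509 units the order was another one: Nr1d1 varied most, with an SD of 0.62 (78.4%), followed by Per3 at 0.48 (67.1%) and Nr1d2 at 0.42 (61.5%). Per2 varied least there, with an SD of 0.16, larger than in 16.2% of tested genes, beside a median of 0.34. Whether the spread itself differed between the groups was not tested.

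**Figure D3:**
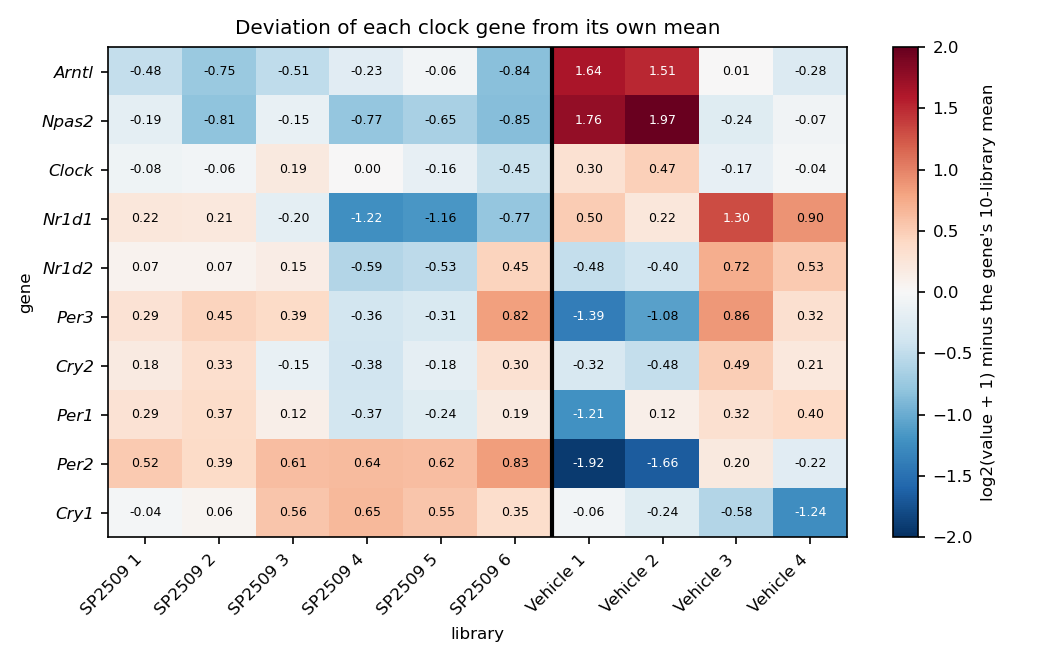
Deviation of each core clock gene from its own 10-library mean, in log2(value + 1), for the 6 SP2509 libraries (left of the line) and the 4 vehicle libraries; red is above and blue below the mean. Vehicle 1 and 2 are red for Arntl and Npas2 and blue for Per2 and Per3, Vehicle 3 and 4 are red for Nr1d1 and blue for Cry1, and SP2509 4 and 5 are blue for Nr1d1 and red for Cry1.

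Read library by library, the members were arranged differently in different libraries. Vehicle 1 and 2 had Arntl 1.64 and 1.51 above its 10-library mean in log2 and Npas2 1.76 and 1.97 above, with Per2 at -1.92 and -1.66 and Per3 at -1.39 and -1.08. Vehicle 3 and 4 had Nr1d1 at 1.30 and 0.90 and Cry1 at -0.58 and -1.24. Those libraries thus held the highest Nr1d1 and the lowest Cry1 of all 10, with Arntl near its mean at 0.01 and -0.28. The SP2509 libraries had Per2 at 0.39 to 0.83 and Arntl at -0.84 to -0.06 throughout, but were not alike in other members. Within them SP2509 4 and 5 had Nr1d1 at -1.22 and -1.16 and Cry1 at 0.65 and 0.55, with Cry1 at 0.56 in SP2509 3 also. Per1 (-0.37 and -0.24), Per3 (-0.36 and -0.31) and Nr1d2 (-0.59 and -0.53) were below their means in SP2509 4 and 5. In the other SP2509 libraries these genes were above their means.

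The difference between log2 Arntl and log2 Nr1d1, a gene and its repressor, did not separate the groups. It was -1.78 in SP2509 5, -1.89 in SP2509 4, -2.94 in SP2509 6, -3.18 in SP2509 3, -3.59 in SP2509 1 and -3.83 in SP2509 2. In the vehicle libraries it was -1.59 in Vehicle 2, -1.74 in Vehicle 1, -4.06 in Vehicle 4 and -4.17 in Vehicle 3. All 6 SP2509 libraries thus lay between one vehicle pair and the other. Of 7 such differences computed, chosen after values were seen, 4 did not overlap between the groups: Per2 minus Nr1d1, Per2 minus Arntl, Cry1 minus Nr1d1 and Per1 minus Per2. Each of the 4 includes Per2 or Cry1, the members whose own groups did not overlap, so they are not separate findings. The share over all pairs of genes was not computed, and nothing is read from the count. Npas2 minus Nr1d1 and Dbp minus Per2 overlapped, as did Arntl minus Nr1d1. Log2 Per2 minus log2 Nr1d1 was 0.33 to 2.01 in SP2509 and -2.28 to -0.96 in vehicle. The vehicle libraries with the highest Arntl, 1 and 2, also had the highest mitochondrial read shares, 48.5% and 52.1%, against 45.1% in Vehicle 3 and 35.3% in Vehicle 4. The part of that share, and of the hour of collection, in these values was not tested.

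**Figure D4:**
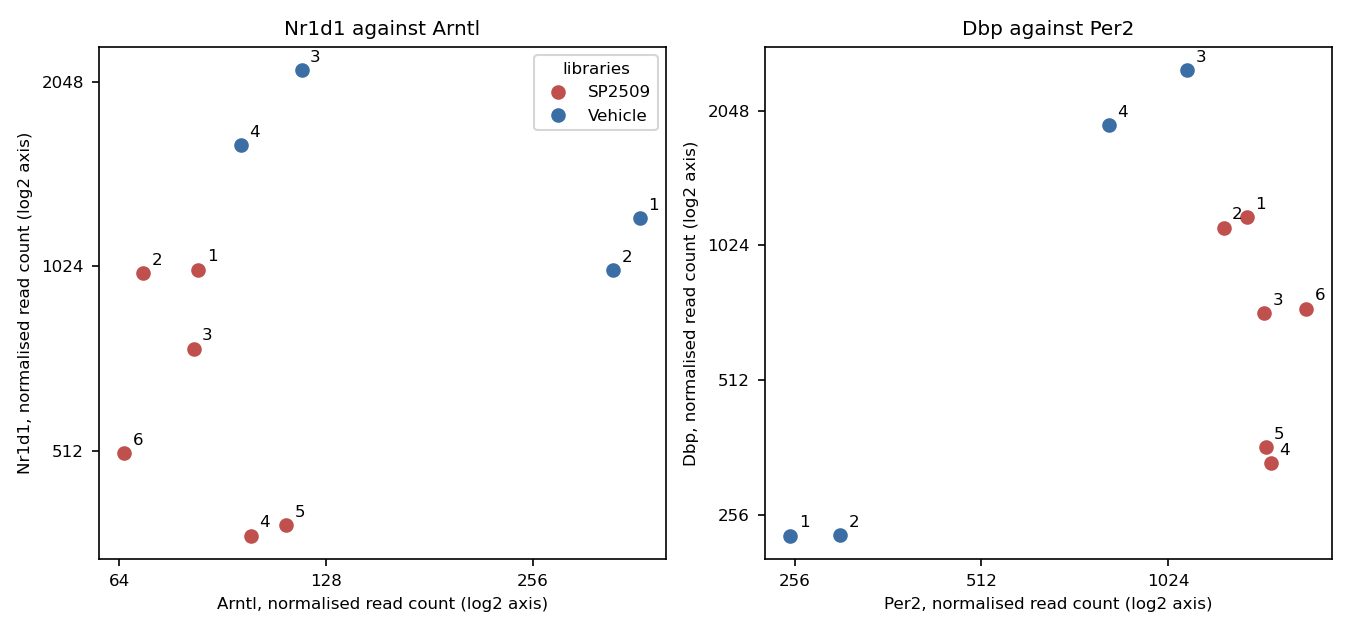
Each point is 1 library, labelled by its replicate number, with normalised read counts on log2 axes: Nr1d1 against Arntl on the left and Dbp against Per2 on the right. Vehicle 1 and 2 sit at high Arntl and at low Per2 and Dbp, Vehicle 3 and 4 at high Nr1d1 and Dbp, and the SP2509 libraries at low Arntl and high Per2, with SP2509 4 and 5 lowest in Nr1d1.

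Levels of different genes were compared per kb of exon. In SP2509 the order of mean normalised counts per kb was Nr1d2 at 321, Per1 at 283, Per2 at 255, Nr1d1 at 215, Per3 at 166, Cry2 at 84.3, Cry1 at 71.0, Clock at 47.7, Arntl at 10.9 and Npas2 at 10.1. In vehicle it was Nr1d1 at 487, Nr1d2 at 348, Per1 at 269, Per3 at 126, Per2 at 106, Cry2 at 82.8, Clock at 56.6, Cry1 at 38.9, Npas2 at 33.5 and Arntl at 30.4. Nr1d1 was thus at rank 4 in SP2509 and rank 1 in vehicle, and Per2 at rank 3 and rank 5. Neighbours in either order overlapped in their library ranges, except Clock and Arntl in SP2509. Arntl and Npas2 were the lowest members per kb in both groups, and the REV-ERB and PER genes were the highest.

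Clock output and modulator genes were read from the same fit, as a list of 22 genes chosen with earlier results of these data known. Of these, 1 was called, Wee1, which rose, and none fell (4.55% of the list, beside 9.10% of all tested genes), and 5 had an unadjusted p under 0.05, as did 28.0% of all tested genes. Their median log2 fold change was 0.04, with 14 positive and 8 negative. Wee1, a kinase gene that holds cells back from mitosis and that BMAL1 and CLOCK drive through E-boxes in mouse liver, had 187, 234 and 292 counts as lowest, median and highest in SP2509, against 77.9, 141, 117 and 154 in Vehicle 1 to 4. Every SP2509 library lay above every vehicle library. The log2 fold change was 0.98 ± 0.20 (SE) with an adjusted p of 0.0175 in limma, but 0.78 with an adjusted p of 0.0515 without Vehicle replicate 1, and 1.0 with an adjusted p of 0.0751 with the close pairs merged.

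The other genes of smallest p in the list missed the threshold. Fbxw11, a ubiquitin ligase gene that acts on PER proteins, had 414 ± 39.4 counts in SP2509 and 315 ± 28.3 in vehicle (SD, n = 4 each). Over the 10 libraries its log2 fold change was 0.37 ± 0.12 (SE, adjusted p = 0.0641 in limma), and the adjusted p was 0.138 with the close pairs merged. Gsk3b, a kinase gene, had 682 ± 36.9 in SP2509 and 536 ± 59.0 in vehicle (adjusted p = 0.0718 in limma), and TMM scaling brought both under the threshold, as leaving out SP2509 replicate 6 did for Fbxw11 (adjusted p = 0.0491). Nampt, the NAD salvage enzyme gene that the clock drives, had 1127 ± 210.4 in SP2509 and 1451 ± 288 in vehicle (adjusted p = 0.113 in limma), and fell at an adjusted p of 0.0247 without SP2509 replicate 6. Of all 17088 tested genes, 3459 were called without SP2509 replicate 6 and 1833 under TMM scaling.

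The D-box activator genes Dbp and Tef, chosen for description after their values were seen, had Vehicle 1 and 2 below Vehicle 3 and 4. The PER and Nr1d genes and Cry2 had the same order of these pairs, while Arntl, Npas2, Clock and Cry1 had the reverse. The share of all tested genes with such a split of the vehicle libraries was not computed, and nothing is read from it. Those pairs also differed in mitochondrial read share, and its part in the split was not tested. Dbp had 334, 731 and 1184 counts as lowest, median and highest in SP2509, against 229.9, 230.3, 2519.7 and 1901 in Vehicle 1 to 4. All SP2509 libraries lay between the low Vehicle 1 and 2 and the high Vehicle 3 and 4. The log2 fold change was -0.10 ± 0.70 (SE), and the vehicle SD of 1.88 in log2 was larger than in 97.9% of tested genes. Tef had 2638 to 5197 in SP2509, and 2409, 2531, 7069 and 5326 in Vehicle 1 to 4.

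Nfil3, a D-box repressor gene that REV-ERB represses in mouse, was also chosen after its values were seen. Nfil3 had 112 to 285 in SP2509 and 132, 241, 70.4 and 89.8 in Vehicle 1 to 4 (log2 fold change 0.59 ± 0.36, adjusted p = 0.310 in limma). Vehicle 3 and 4 were the lowest libraries, and Vehicle 1 and 2 lay inside the SP2509 range.

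**Figure D5:**
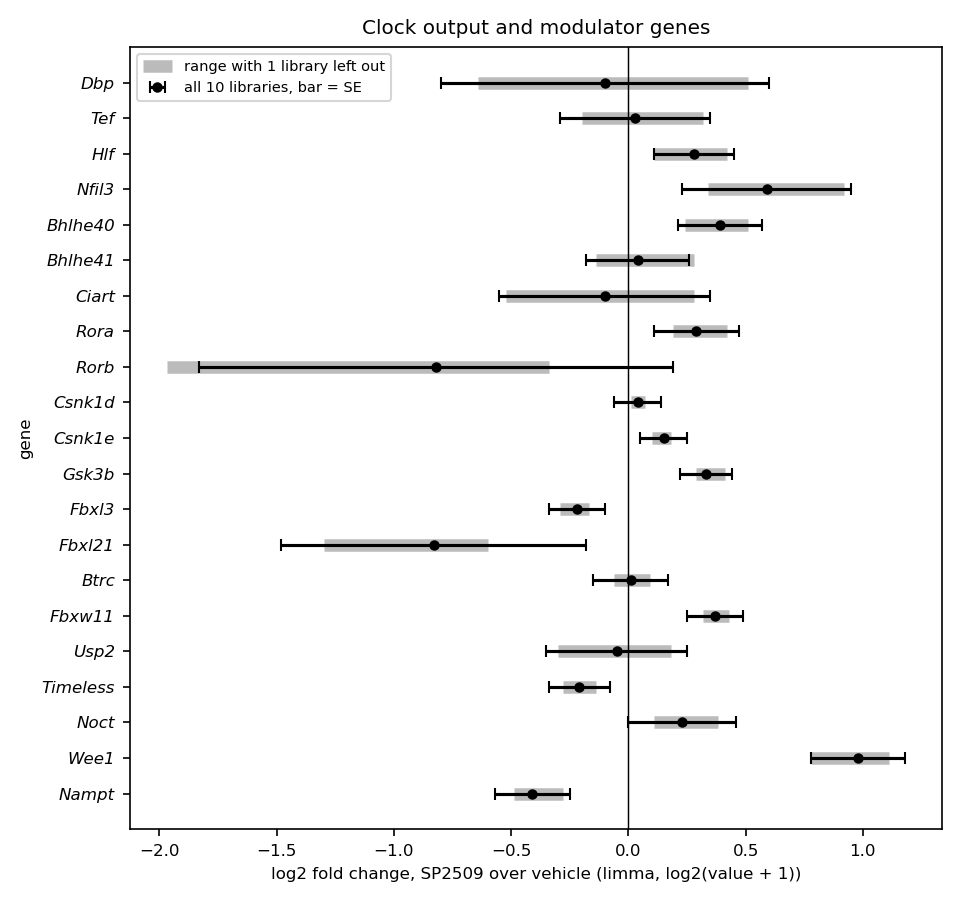
Log2 fold change of SP2509 over vehicle for the clock output and modulator genes, all but 1 of the 22 (limma on log2(value + 1)); points are the fit of all 10 libraries, black bars its SE, and grey bands the range when each library is left out in turn. Wee1 at 0.98 has a band from 0.78 to 1.11, while Dbp at -0.10 has one from -0.64 to 0.51.

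Genes that answer to glucocorticoids were counted because that hormone sets peripheral clocks and acts on Per1 and Per2 directly. None of 12 was called by limma or edgeR and 1, Sgk1, by DESeq2, beside 9.10%, 8.76% and 17.6% of all tested genes by the same tools. An unadjusted p under 0.05 in limma was found for 4 of the 12, beside 28.0% of all tested genes. The median log2 fold change of the 12 was 0.06, with 6 positive and 6 negative. Sgk1, a kinase gene, had 1869 ± 190.1 counts in SP2509 and 1453 ± 113 in vehicle (SD, n = 4 each), and its groups did not overlap. Over the 10 libraries its log2 fold change was 0.35 ± 0.11 (SE, adjusted p = 0.0606 in limma), and the adjusted p was 0.157 with the close pairs merged. The feedback genes Tsc22d3 and Fkbp5 had log2 fold changes of 0.46 ± 0.19 (adjusted p = 0.134 in limma) and 0.56 ± 0.24 (adjusted p = 0.159 in limma). Klf9 had 0.69 ± 0.32 (adjusted p = 0.177 in limma). Calls here changed with single libraries and with the processing. Without SP2509 replicate 6, Sgk1 rose (adjusted p = 0.0177) and Zbtb16 fell (adjusted p = 0.0146), and without Vehicle replicate 3, Fkbp5 rose (adjusted p = 0.0431). With all 10 libraries and the muscle covariate in limma, Sgk1 rose (adjusted p = 0.0134) and Zbtb16 fell (adjusted p = 0.0246). Under TMM scaling Sgk1 also rose (adjusted p = 0.0447 in limma). Over all 17088 tested genes, 3459 were called without SP2509 replicate 6 and 712 without Vehicle replicate 3. The muscle covariate gave 2600 and TMM scaling 1833.

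Chromatin proteins reported to act with the clock were the last list. None of 14 was called by limma, edgeR or DESeq2, with a median log2 fold change of 0.02. An unadjusted p under 0.05 was found for 0 of them in limma, 1 in edgeR and 0 in DESeq2, beside 28.0%, 28.5% and 30.6% of all tested genes. Kdm1a, which encodes LSD1, the target of SP2509, had 748 ± 92.3 counts in SP2509 and 737 ± 68.1 in vehicle (SD, n = 4 each). Over the 10 libraries its log2 fold change was 0.01 ± 0.12 (SE, adjusted p = 0.958 in limma). The inhibitor acts on the protein, so the transcript is no check of treatment. Sin3a, a co-repressor scaffold gene, had the smallest p, with a log2 fold change of 0.28 ± 0.14 (adjusted p = 0.208 in limma). It was followed by Sirt1, a deacetylase gene, at -0.23 ± 0.12 (adjusted p = 0.226 in limma), and by Nono at 0.25 ± 0.13 and Wdr5 at 0.20 ± 0.11 (both adjusted p = 0.243 in limma). Without SP2509 replicate 6, Nono and Sfpq rose, with adjusted p of 0.0231 and 0.0300, beside 3459 of all 17088 tested genes called in that fit.

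Likeness of pattern was measured as the root mean square difference between centred and scaled log2 profiles over the 10 libraries, where 0 is the same profile, 1.41 an uncorrelated one and 2 a mirror image. To Arntl, Npas2 stood at 0.35 and Clock at 0.68, and Per2 at 1.97, Per3 at 1.93, Per1 at 1.81 and Cry2 at 1.81. Other listed genes lay at like values, such as Hdac3 at 0.70 and Mt2 at 0.72 on the near side and Fkbp5 at 1.92 on the far side. Nr1d1 had another profile, with Nr1d2 at 0.93, Dbp at 0.94, Arntl at 1.21 and, close to a mirror image, Cry1 at 1.92 and Nfil3 at 1.93. Nearer to Nr1d1 than Nr1d2 was were the listed genes Kmt2a at 0.55, Sirt1 at 0.66, Timeless at 0.83, Kdm1a at 0.89 and Ciart at 0.91. These values hold the group difference and the spread within groups together, over libraries of unequal depth.

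Among 12604 genes with a mean of at least 50, those nearest to Arntl outside the members were Gm43355 at 0.18, Gm26668 at 0.26, Cpsf1 at 0.30, Gm44416 at 0.30 and Tfpt at 0.32. Gm26668 had 32.2 to 53.8 counts in SP2509 and 55.7 to 139 in vehicle, and Gm44416 had 17.1 to 38.5 and 38.6 to 135. Both reached the mean of 50 through their vehicle values, so their likeness is in part set by the filter. Gm43355, annotated as a transcribed pseudogene, had 36.6 to 109 counts in SP2509 and 1378, 759, 121 and 116 in Vehicle 1 to 4, and so shared Arntl's split of the vehicle libraries. Most opposite to Arntl were Aspn, Timp3 and Apc at 1.98 and Col8a1 and Fst at 1.97, of which Aspn had 908 to 996 counts in SP2509 and 359.7, 467, 781 and 899 in Vehicle 1 to 4. Nearest to Nr1d1 were Aim2 at 0.15, Pde4c at 0.23, Rab36 at 0.26, Agap2 at 0.28 and Col4a5 at 0.29. Aim2, with 26.9 to 68.5 counts in SP2509 and 59.9 to 97.1 in vehicle, also reached the mean of 50 through its vehicle values. Most opposite to Nr1d1 were Ythdf1, Hspa1a, Ufc1 and Tmco4 at 1.98 and Polr2i at 1.97. Hspa1a, a heat shock chaperone gene, had 165 to 328 counts in SP2509, highest in replicates 4 and 5, and 101 to 134 in vehicle.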

How the data were processed

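Poly-A RNA of 10 mouse tongue libraries was sequenced. HISAT2, featureCounts and mm10 are named, without versions, in the submitters' processing notes. The deposited values are a signal that no label defines: dividing them by the worth of 1 read gave whole numbers (within 0.01) for 100% of values, so they are read counts that the authors divided by 1 size factor per library. Of 27151 genes, 27113 matched a symbol in GENCODE M21 (GRCm38, the same build as mm10).

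limma 3.58.1 (R 4.3.3), with trend and robust empirical Bayes, was fitted on log2(value + 1), two-sided, over the 17088 genes that reached 10 in 4 or more libraries. P-values were adjusted by Benjamini-Hochberg over all of these, and edgeR 4.0.16 and DESeq2 1.42.0 were run on the recovered whole reads. The log2(value + 1) scale understates changes of low genes. Replicate groups come from the treatment labels, which do not tie libraries to mice: the p-values reflect how these libraries spread, which may be technical. The fit was tested on simulated data of independent libraries with no close pairs, so that test is no check on the p-values of these libraries.

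The members and lists were chosen with earlier results of these data known. Named genes are all members, the called genes and the 4 of smallest p in each list, genes overlapping a member, and the 5 genes closest and the 5 most opposite in profile to Arntl and to Nr1d1, with exceptions named in the text. The values of 1 listed gene are not reported here. Alternatives were the pseudocount (0.5 or 5), the filter (none, or 50 in 4 libraries), TMM and quantile scaling, limma without trend, edgeR, DESeq2, each library left out, merged close pairs, SP2509 4 and 5 left out, a replicate block and a muscle covariate. Tables were made with pandas 2.3.3 and NumPy 2.4.6 under Python 3.11.15, and figures with matplotlib 3.10.9.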

Additional observations from a re-analysis of the deposited data

Results flagged for a closer look

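A library was flagged where its gap to the nearest other library of its group was an outlying share of the group's whole range by Dixon's test at the 95% level, over the core clock genes and the 3 other lists. Of 116 groups (58 genes in 2 groups), 4 were flagged, and chance flags about 1 in 20. None was a core clock gene. Usp2, which encodes a deubiquitinase of clock proteins, had 2507 counts in SP2509 replicate 6, and 988 to 1213 in the other 3 SP2509 units. Zbtb16, a glucocorticoid-responsive gene, had 899 counts in the same library, against 171 to 249.7, and 869 in Vehicle replicate 3, against 358 to 383. Pdk4, a kinase gene of fuel choice in muscle, had 3252 counts in SP2509 replicate 6, against 358 to 635. That library also held the highest muscle marker sum, 861923, and the part of muscle in these values was not tested.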

How the results depend on the processing

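Called genes numbered 1555 in all, 846 higher and 709 lower. The number was 1032 with no filter, 971 without trend, 3000 with DESeq2, 0 with merged close pairs, 375 without SP2509 4 and 5, 2600 with a muscle covariate, and 278 (without Vehicle replicate 1) to 3459 (without SP2509 replicate 6) with 1 library left out. TMM scaling moved the median of all genes to 0.074 and the split to 1251 higher and 582 lower, and quantile scaling gave 666 higher and 1060 lower.

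Of the core clock genes, 3 were called, beside 1555 of 17088 tested genes. The member count was 1 with no filter, without trend or with a muscle covariate, beside 1032 of 27151, 971 and 2600 genes. It was 5 with the filter of 50, edgeR or DESeq2, beside 1890 of 12786, 1497 and 3000 genes. With merged pairs or without SP2509 4 and 5 it was 0, beside 0 and 375 genes. With 1 library left out it was 0 to 3, beside 278 to 3459 genes. The members' median log2 fold change was 0.14 without SP2509 4 and 5, and -0.20 to 0.13 with 1 library left out.

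The output list had 3 called under TMM, 4 under DESeq2, 2 with the muscle covariate, 0 with merged pairs and 0 to 3 with 1 library left out. The glucocorticoid list had 1 under the filter of 50, TMM or DESeq2, 2 with the muscle covariate and 0 to 2 with 1 library left out. The chromatin list had 1 with the muscle covariate and 0 to 2 with 1 library left out. Over all tested genes the numbers were 1833 under TMM, 3000 under DESeq2 and 2600 with the muscle covariate. They were 1890 of 12786 with the filter of 50, 0 with merged pairs and 278 to 3459 with 1 library left out. The cause was not tested.

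The replicate block gave 1971 called genes, 0 core clock, 2 output, 1 glucocorticoid and 0 chromatin genes, and a member median of -0.05. Whether replicate numbers pair libraries is not stated in the labels and cannot be decided from so few correlations. Same-number correlations were 0.13, 0.03, -0.20 and 0.13, and 2 of 4 SP2509 libraries were best matched by their own number. Npas2, Arntl and Cry1 rest on the fewest reads, with 42, 80 and 84 in their lowest library.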
